A study of Mus musculus with 4 samples.

Results

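Cytosolic ribosomal protein genes encode the proteins of the large and small subunits of the ribosome that translates nuclear mRNAs in the cytoplasm. They were taken as the gene symbols of the count table that start with Rpl or Rps followed directly by a digit, p or a, without the Rps6k kinases and without pseudogenes ending in -ps, which gave 87 of 16339 genes. Of the 87 genes, 77 were core ribosomal proteins, 46 of the large and 31 of the small subunit, and 9 were paralogs or retrogene copies. The last was Rps19bp1, which encodes a binding protein of RPS19 and is not a ribosomal protein. The symbols do not take in Fau, which encodes RPS30 as a ubiquitin-like fusion, and Rack1, which encodes the small subunit scaffold RACK1, and these are given separately. Enough counts for a test were present for 86 of the 87, and Rps23rg1 had 4, 0, 2 and 6 counts in the 4 libraries and was not tested.

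RNA was sequenced from the hypothalamus of adult male C57BL/6 mice that had received western diet (WD), a diet with 60% fat together with a 30% sucrose solution, for 12 weeks. The comparison is between 2 libraries of WD-fed wild-type (WT) littermates and 2 libraries of WD-fed Tas1r3-/- mice, which carry a conventional whole-body knockout of the taste receptor subunit T1R3, so every library comes from a WD-fed animal. The labels number the libraries within each group but do not say that each is a separate mouse, so p-values measure the spread between these libraries only. The labels give no age in weeks, and libraries of mice on normal diet were not analysed here.

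Ribosomal proteins are made in near equal amounts, since each ribosome holds a single copy of most of them, and they assemble with rRNA in the nucleolus. In mammals most of their mRNAs start with a C followed by a run of pyrimidines, the 5′ terminal oligopyrimidine (TOP) motif, through which mTORC1 and LARP1 control their translation and stability. Many of their introns hold small nucleolar RNAs. In the brain they are expressed in every cell type.

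The start of the transcript is shown for members whose values are described later, because the TOP motif is the sequence feature that these genes are best known to share. The 30 bases run from 15 before to 15 from the RefSeq start, 5′ to 3′ on the strand of the gene, from a RefSeq table of GRCm38.p6, and were placed on GRCm39 by exact match. Capitals mark a C at the start base that is followed directly by at least 4 further C or T. Rpl28 and Rps18 are among the genes with the lowest fold changes described later, and Rps15a and Rpl35a among those with the highest. For Rpl35a the listed start with the run is shown, and its other listed starts have no run.
Rpl28, chr7:4795949-4795978, plus strand: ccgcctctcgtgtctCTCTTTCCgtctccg
Rps18, chr17:34174625-34174654, minus strand: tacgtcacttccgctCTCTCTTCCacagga
Rps15a, chr7:117715356-117715385, minus strand: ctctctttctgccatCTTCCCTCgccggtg
Rpl35a, chr16:32876837-32876866, plus strand: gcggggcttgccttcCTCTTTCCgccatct
Rplp2 encodes a protein of the ribosomal stalk, and Rplp0, another stalk gene, has no run at its listed start.
Rplp2, chr7:141027549-141027578, plus strand: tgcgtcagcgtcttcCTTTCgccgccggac
Rplp0, chr5:115697511-115697540, plus strand: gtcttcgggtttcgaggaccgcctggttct
Rps27 and its retrogene copy Rps27rt are shown because their starts and their counts are alike.
Rps27, chr3:90120941-90120970, minus strand: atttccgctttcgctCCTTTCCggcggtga
Rps27rt, chr9:114811793-114811822, minus strand: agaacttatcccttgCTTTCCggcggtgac

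The table held a start for 66 of the 87 genes, and 15 of them had the run of at least 5 bases at a listed start. Counted by starts this was 19.5% of the 77 starts of members, against 2.47% of 32774 starts of other genes. This search looked at the listed start base only, on the strand of the gene, and a start listed a few bases away from the true one would miss the run. The 15 genes with a run had a median log2 fold change of 0.02 between Tas1r3-/- WD and WT WD, with 4 of them lower in both Tas1r3-/- libraries than in both WT libraries and 0 higher. The 50 tested genes with a listed start but no run had a median of -0.08, with 10 lower and 1 higher. Among all genes tested 19.0% were lower and 20.6% higher in this sense, and among genes of like transcript length 28.9% and 9.24%. No spread between libraries was computed for these medians. For all tested members, the library medians relative to each gene's mean ran from -0.08 to 0.11 on the log2 scale, as described later.

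The genes share further features that their symbols did not use. Their annotated transcripts (Ensembl canonical transcripts of GENCODE M39) had a median length of 1051 nucleotides, against 3522 for all genes tested, and 61 of them fell in the shortest 10% of transcripts. Their coding sequences had a median of 453 nucleotides, against 1437. In the same annotation 32 of the 87 (36.8%) were tagged as hosts of a noncoding RNA, against 8.62% of the 14750 other protein-coding genes in the table. They lie on 19 chromosomes, with 4 of them, Rpl10, Rps4x, Rpl36a and Rpl39, on the X chromosome. Several transcripts in this annotation carry long 3′ ends, as in Rpl37 with 6111 nucleotides, so lengths are those of the annotation and not measured here.

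Library size was even, with 5728729 to 6180137 estimated counts in named genes, but the libraries differed in tissue content. WT WD replicate 2 stood apart, with all 16 hypothalamic markers lowest there and a summed level of 66.9 CPM (counts scaled to library size by TMM), against 1516 to 2149 CPM in the other 3 libraries. Nr5a1, which marks the ventromedial hypothalamus, had 0 counts in it. Thalamic markers summed to 2484 CPM in WT WD replicate 2 against 349 to 551 CPM elsewhere, those of choroid plexus to 1140 CPM against 179.5 to 203 CPM, and those of red blood cells to 1956 CPM against 379.7 to 768 CPM. Pituitary markers summed to 1814 CPM in Tas1r3-/- WD replicate 1 against 6.91 to 144.5 CPM elsewhere. Tas1r3 itself was lower in both knockout libraries (1.12 and 1.22 CPM) than in both WT libraries (6.00 and 4.44 CPM), as labelled. Its log2 fold change was -2.13 ± 0.42 (SE), with a Benjamini-Hochberg adjusted p of 0.757 in the quasi-likelihood test of edgeR. In tissue pieces of this kind, fewer cells of a type and less RNA per cell cannot be told apart.

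No ribosomal protein gene passed the test between Tas1r3-/- WD and WT WD. A DEG was a gene past an adjusted p of 0.05 that changed at least 1.5-fold, and edgeR called 0 of 86 members and 0 of 14344 genes (0%). At an unadjusted p under 0.05 there were 0 members, against 772 of all genes (5.38%), and DESeq2 called 0 members and 8 genes (0.0488% of all genes higher in Tas1r3-/- mice and 0.00697% lower). Every one of the 86 fold changes lay within 1.5-fold, from -0.32 to 0.33 on the log2 scale, and 64 of them were smaller than their own standard error. The standard errors ran from 0.12 to 0.39 with a median of 0.16, and adjusted p-values from 0.757 to 1.000. The smallest change that 2 libraries per group could detect with this spread was not computed. Tas1r3, at a log2 fold change of -2.13, did not pass the test either (adjusted p = 0.757 in edgeR). The lack of calls therefore does not show that levels were equal.

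As a group the genes made up a small and variable part of each library. They held 1.36% of the counts in WT WD replicate 1 (exact 95% binomial interval 1.36% to 1.37%) and 1.15% in WT WD replicate 2 (1.15% to 1.16%). In Tas1r3-/- WD they held 1.25% in replicate 1 (1.24% to 1.26%) and 1.20% in replicate 2 (1.19% to 1.21%). Both Tas1r3-/- libraries therefore lay between the WT libraries. The means were 1.26% ± 0.15 (SD, n = 2) in WT and 1.23% ± 0.03 (SD, n = 2) in Tas1r3-/- mice, a difference of -0.03 percentage points, which was smaller than the spread between the WT libraries. The intervals cover counting error only, and the gaps between libraries of one group were wider than they are.

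**Figure D1:**
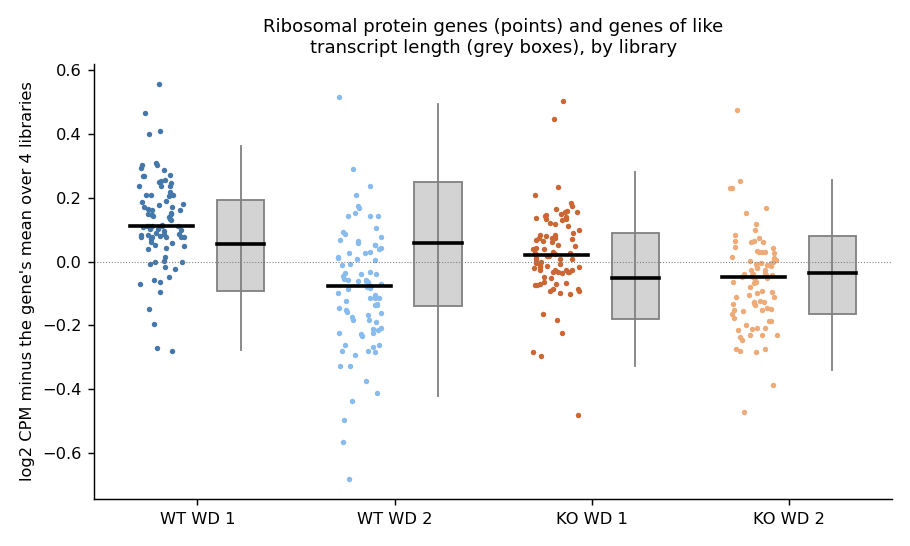
Level of each gene in each library as log2 CPM minus the mean of that gene over the 4 libraries, with the 86 tested ribosomal protein genes as points and 4598 genes of like transcript length as grey boxes (quartiles, whiskers from the 10th to the 90th percentile). Black bars are medians, and for the ribosomal protein genes they were highest in WT WD replicate 1 (0.11) and lowest in WT WD replicate 2 (-0.08), with the Tas1r3-/- (KO) libraries between.

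The medians over single genes had the same order, which a minority of the genes showed in full. The median level of the 86 genes, relative to each gene's mean, was 0.11 and -0.08 on the log2 scale in the first and second WT library. In the first and second Tas1r3-/- library it was 0.02 and -0.05. WT WD replicate 1 was the highest library for 54 of 86 genes (62.8%), against 25.2% of all genes. WT WD replicate 2 was below replicate 1 for 65 of 86 (75.6%), against 50.8% of all genes. Both Tas1r3-/- libraries lay between the WT libraries for 34 of 86 (39.5%), against 25.0% of all genes, and WT WD replicate 2 was the lowest library for 42 (48.8%), against 34.6% of all genes. Across all genes tested the 4 medians lay between -0.003 and 0.01, which the scaling of the libraries sets near 0. For 64 of the 86 genes the gap between the WT libraries was larger than the difference between the group means, against 65.1% of all genes. WT WD replicate 2 is also the library with thalamic and few hypothalamic transcripts, and the part of that in these levels was not tested.

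The direction of the comparison depended on which WT library was used. With all 4 libraries 31 genes were higher and 55 lower in Tas1r3-/- mice, with a median log2 fold change of -0.06, against -0.01 for all genes. Without WT WD replicate 2 the median was -0.14, with 13 genes higher and 73 lower. Without WT WD replicate 1 it was 0.07, with 57 higher and 29 lower. The sign differed between these 2 fits for 50 of the 86 genes, and 25 genes kept 1 sign in the fit of all libraries and in all 4 fits that left out a library. Leaving out Tas1r3-/- WD replicate 1 or 2 gave medians of -0.08 and -0.03.

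**Figure D2:**
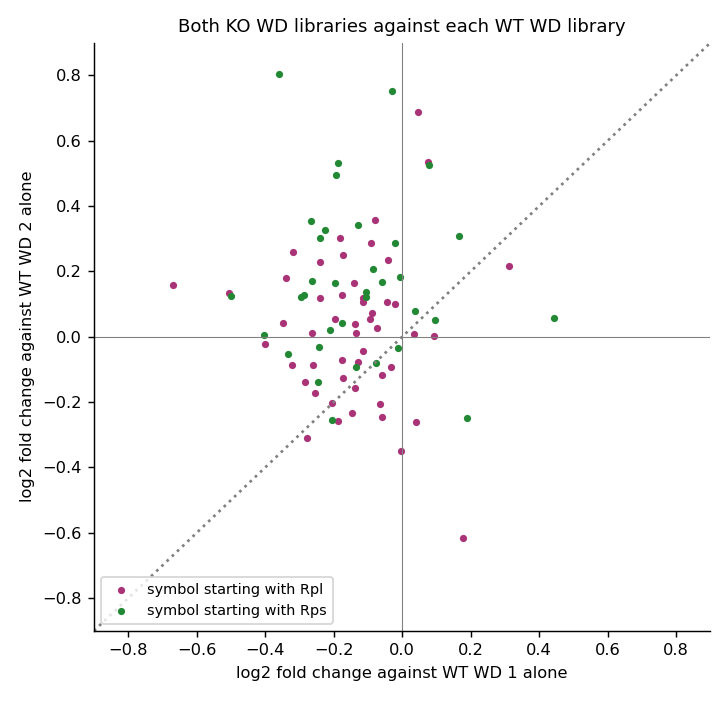
Log2 fold change of each of the 86 genes in edgeR with both Tas1r3-/- libraries against WT WD replicate 1 alone (x axis) and against WT WD replicate 2 alone (y axis), coloured by symbol. Most points lie in the upper left, lower against replicate 1 and higher against replicate 2, and the dotted line marks equal values.

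Among the alternatives run, calls among the members appeared only where WT WD replicate 1 was left out, which leaves replicate 2, with its thalamic transcripts, as the sole WT library and assumes that it varies like the others. That fit called 2123 of all genes in edgeR, 7.55% of 14841 genes as higher in Tas1r3-/- mice and 6.75% as lower. Of the members it called 3, Rps4l, Rps15a and Rpl22l1, all as higher. Without the fold change threshold it called 8, among them also Rpl35a, Rps19, Rpsa and Rpl3, and all 8 were higher, against 11.0% of all genes higher and 9.84% lower. At an unadjusted p under 0.05 it had 21 members, against 33.7% of all genes. The 8 members were 9.30% of the 86, near the 11.0% of all genes that were higher, while in the lower direction there were 0 members. Without WT WD replicate 2, edgeR called 0.183% of all genes as higher and 0.034% as lower, and 0 members, although 19 members had an unadjusted p under 0.05, against 13.7% of all genes.

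Both Tas1r3-/- libraries lay above both WT libraries for 2 of 86 genes and below for 16. Over all genes tested these shares were 20.6% above and 19.0% below, so the members that lay below (18.6%) were as frequent as among all genes and those that lay above (2.33%) were fewer. The 2 above were Rpl22l1 and Rps27a. The 16 below were Rpl13a, Rpl14, Rpl17, Rpl18, Rpl23, Rpl24, Rpl26, Rpl27a, Rpl28, Rpl36a, Rpl36al, Rpl38, Rpl39, Rps15, Rps18 and Rps29, of which 12 are core proteins of the large subunit and 3 of the small.

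Fold changes across all genes rose with transcript length. In the shortest 10% of transcripts, up to 1383 nucleotides, the 1345 genes other than the members had a median log2 fold change of -0.16, and in the longest 10%, from 7354 nucleotides, the median was 0.22. The 61 members in the shortest 10% had a median of -0.06, and 12 of them lay below in both Tas1r3-/- libraries, against 32.8% of the other genes of that length. Set against 4598 genes of like length (512.5 to 2686.5 nucleotides, the 10th to 90th percentile of the members), the members had a median of -0.06 and the others -0.11, a difference of 0.05 that was smaller than the spread of this difference between libraries of a group (0.11, pooled SD). Of the genes of like length 9.24% lay above and 28.9% below, against 2.33% and 18.6% of the members.

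**Figure D3:**
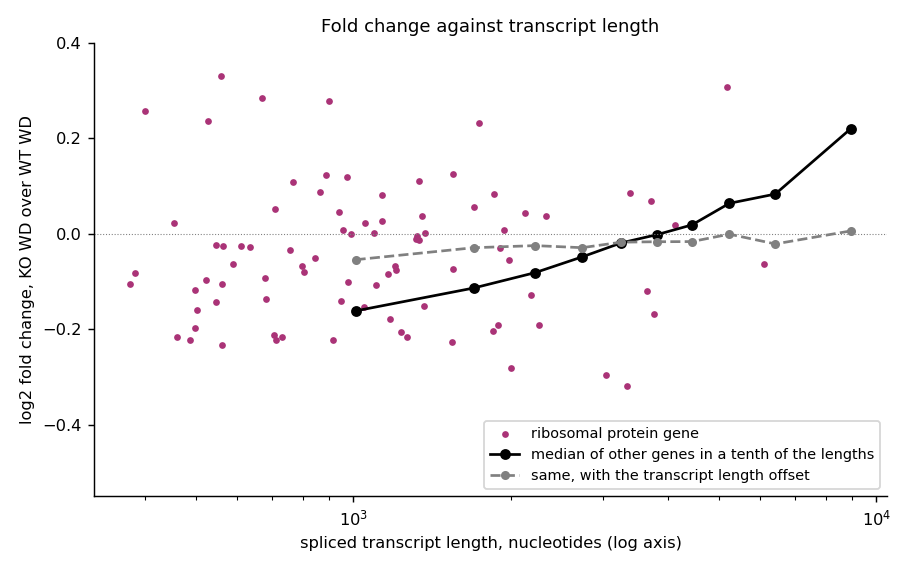
Log2 fold change of Tas1r3-/- WD over WT WD against spliced transcript length (log axis). Points are the 86 ribosomal protein genes, black circles the medians of other genes in 10 bins of length with equal numbers of genes (from -0.16 in the shortest to 0.22 in the longest), each at the median length of its bin, and grey circles the same medians after an offset for length.

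The genes of like length and the ribosomal protein genes also differed in the order of their library medians. The genes of like length were at 0.06 and 0.06 in the WT libraries and at -0.05 and -0.04 in the Tas1r3-/- libraries, relative to each gene's mean on the log2 scale, so their medians differed between the groups and not between the WT libraries, whereas those of the ribosomal protein genes differed most between the WT libraries. Single genes of like length did differ between the WT libraries, in either direction. Their median absolute gap was 0.29 on the log2 scale, against 0.23 for the members. For genes of like length and mean level it was 0.21, slightly below that of the members. With an offset that removes the length trend from each library, the median of the members was 0.04, that of all genes -0.02 and that of genes of like length -0.04. In that fit 36 of 86 members lay above in both Tas1r3-/- libraries and 1 below, which turns the balance of the main comparison around. The shares in that fit were 15.8% above and 21.5% below among all genes, and 21.9% above and 11.0% below among genes of like length, whose balance turned around too. The offset called 0 members and 0 genes, and 529 genes had an unadjusted p under 0.05.

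The large subunit is the part of the ribosome that forms peptide bonds. Its 46 core genes had a median log2 fold change of -0.08, with 11 higher and 35 lower and a range from -0.32 to 0.28. In both Tas1r3-/- libraries 0 lay above and 12 below (26.1%). The shares were 20.6% and 19.0% of all genes, and 9.24% and 28.9% of genes of like length. The small subunit decodes the mRNA. Its 31 core genes had a median of 0.00, with 16 higher and 15 lower, a range from -0.23 to 0.31, and 1 above and 3 below. In the small subunit the gap between the WT libraries was wider, with a median of -0.27 for replicate 2 against replicate 1 and 27 of 31 genes lower in replicate 2, against -0.14 and 32 of 46 in the large subunit. With the length offset 19 genes (41.3%) of the large subunit lay above and 1 below, and 14 genes (45.2%) of the small subunit above and 0 below. In that fit 21.9% of genes of like length lay above and 11.0% below. The difference between the subunits was not tested. Without WT WD replicate 2 the medians of the large and small subunit were -0.14 and -0.18, and without WT WD replicate 1 they were 0.02 and 0.14.

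The most abundant genes of each subunit are given first, and not all of them followed the order of the medians. Rpl3, a protein at the peptidyl transferase centre, was at 646 and 464 CPM in the first and second WT library and at 564 and 576 CPM in the first and second Tas1r3-/- library, the order kept throughout, so the Tas1r3-/- libraries lay between the WT libraries. Its log2 fold change was 0.04 ± 0.19 (SE). Rpl4, which lines the exit tunnel, was at 474 and 421 CPM in WT and at 434 and 427 CPM in Tas1r3-/- mice, with a change of -0.06 ± 0.13.

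Rpl8, another protein of the large subunit core, was at 491 and 368 CPM in WT and at 443 and 429 CPM in Tas1r3-/- mice (0.02 ± 0.18). Rpl9 was at 309 and 252 CPM in WT and at 272 and 275 CPM in Tas1r3-/- mice (-0.04 ± 0.15). Rpl12, which sits at the base of the stalk, was at 452 and 389 CPM in WT and at 398 and 437 CPM in Tas1r3-/- mice (-0.01 ± 0.15). In Rpl3, Rpl4, Rpl8, Rpl9 and Rpl12 both Tas1r3-/- libraries thus lay inside the range of the WT libraries. Rpl19 differed, with 424 and 542 CPM in WT and 317 and 529 CPM in Tas1r3-/- mice (-0.19 ± 0.29), and the lowest value was that of Tas1r3-/- WD replicate 1.

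In the small subunit Rpsa, which is also known as the laminin receptor precursor, was at 516 and 337 CPM in WT and at 425 and 433 CPM in Tas1r3-/- mice (0.01 ± 0.23). Rps14, a protein of the small subunit platform, was nearly level, at 337 and 343 CPM in WT and 320.0 and 348 CPM in Tas1r3-/- mice (-0.03 ± 0.13). Rps15, needed for the export of the small subunit from the nucleus, was at 491 and 426 CPM in WT and 426 and 404 CPM in Tas1r3-/- mice (-0.14 ± 0.14). Rps15 did not overlap between the groups, but its lower WT library and its higher Tas1r3-/- library were nearly equal.

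The ribosomal stalk of Rplp0, Rplp1 and Rplp2 recruits the elongation factors. Rplp0 was at 194 and 197 CPM in WT and at 201 and 152 CPM in Tas1r3-/- mice (-0.15 ± 0.18), with Tas1r3-/- WD replicate 2 below the other 3 libraries. Rplp1 was at 319.6 and 289.9 CPM in WT and 299.7 and 299 CPM in Tas1r3-/- mice (-0.02 ± 0.13). Rplp2 was at 48.9 and 36.2 CPM in WT and 49.1 and 43.2 CPM in Tas1r3-/- mice (0.12 ± 0.19). The groups overlapped for all 3 stalk genes. Per kilobase of annotated transcript the mean levels over the 4 libraries were 136, 552 and 45.6 CPM for Rplp0, Rplp1 and Rplp2, although the stalk holds RPLP1 and RPLP2 in equal number.

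The spread among core genes was wide in the same unit. Their mean level per kilobase of annotated transcript ran from 8.79 CPM for Rpl34 through a median of 116 CPM to 802 CPM for Rps15, a ratio of 91.2. Rps6 encodes the substrate of the S6 kinases, and phosphorylation of that protein, not measured here, is the textbook readout of mTORC1 activity. Rps6 RNA had only 9.60 and 7.07 CPM in WT and 12.8 and 7.35 CPM in Tas1r3-/- mice and was the lowest core gene by CPM. Ribosomal protein genes have many processed pseudogenes and near-identical copies in the mouse genome, and how the authors' counting assigned reads that fit several copies is not given in the sources used here, so levels of single members are uncertain.

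The 56 core genes outside the stalk that were neither the most abundant nor at the extremes of fold change had mean levels from 9.21 CPM (Rps6) to 269 CPM (Rps3). Of these 19 were higher and 37 lower in Tas1r3-/- mice, from -0.22 to 0.28 on the log2 scale, and for 23 both Tas1r3-/- libraries lay between the WT libraries.

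The lowest fold changes among genes with a mean of at least 10 CPM were those of Rpl29, Rpl28, Rpl34, Rps18 and Rpl17. Rpl29 was at 103 and 58.0 CPM in WT and 78.6 and 50.0 CPM in Tas1r3-/- mice (-0.32 ± 0.35), so the groups overlapped. Rpl34 was at 14.1 and 24.5 CPM in WT and 18.8 and 12.9 CPM in Tas1r3-/- mice (-0.28 ± 0.35), with the highest value in WT WD replicate 2. Both have standard errors larger than their changes.

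Rpl28 had the smallest p of all members (unadjusted p = 0.0762 and adjusted p = 0.757 in edgeR). It was at 179.8 and 185 CPM in WT and at 157 and 140.0 CPM in Tas1r3-/- mice (-0.30 ± 0.13), lower in both Tas1r3-/- libraries, and the change was -0.31 without WT WD replicate 1 and -0.28 without replicate 2. Rps18, a protein of the head of the small subunit, was at 143 and 149 CPM in WT and 120.2 and 129 CPM in Tas1r3-/- mice (-0.23 ± 0.13), with -0.25 and -0.21 in those fits. Rpl28 and Rps18 were thus among the genes whose values did not depend on the WT library, and neither passed the test. With the length offset the change of Rpl28 was -0.29, while that of Rps18 shrank to -0.11. The offset follows the annotated transcript, which has 3037 nucleotides in Rpl28, with 411 of coding sequence, and 560 in Rps18. Other genes in their bins of length had median log2 fold changes of -0.02 and -0.16, so the offset acts little on Rpl28. Rpl17 was at 59.7 and 46.0 CPM in WT and 45.9 and 44.4 CPM in Tas1r3-/- mice (-0.23 ± 0.17), and without WT WD replicate 1 its change was -0.02.

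**Figure D4:**
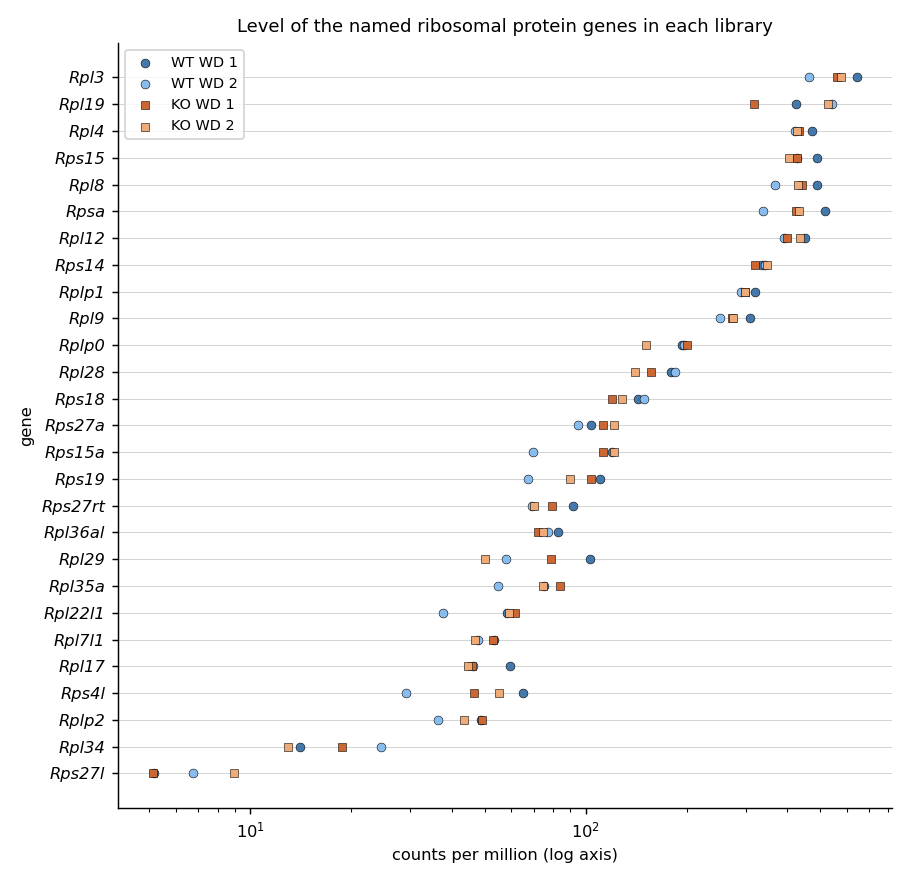
Level of 27 ribosomal protein genes in each library in CPM (log axis), chosen for level, for extreme fold change or as paralogs and stalk proteins, with circles for WT WD and squares for Tas1r3-/- WD (KO) libraries. For many genes, among them Rpl3, Rpsa and Rps4l, the squares lie between a low WT WD replicate 2 and a high WT WD replicate 1, while Rps27a and Rpl22l1 are higher and Rpl28 and Rps18 lower in both Tas1r3-/- libraries.

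The highest fold changes among genes with a mean of at least 10 CPM were those of Rpl22l1, Rps15a, Rpl35a, Rps27a and Rps19. Rps15a was at 119.7 and 69.9 CPM in WT and 113 and 122 CPM in Tas1r3-/- mice (0.31 ± 0.28). Rpl35a was at 75.1 and 54.8 CPM in WT and 83.7 and 74.4 CPM in Tas1r3-/- mice (0.28 ± 0.19). Rps19, the gene most often mutated in Diamond-Blackfan anemia, was at 110.1 and 67.1 CPM in WT and 103 and 89.8 CPM in Tas1r3-/- mice (0.13 ± 0.26). In all 3 genes WT WD replicate 2 was the lowest library and WT WD replicate 1 was above at least 1 Tas1r3-/- library. Without WT WD replicate 2 their log2 fold changes were -0.03, 0.08 and -0.19, and without WT WD replicate 1 they were 0.75, 0.54 and 0.53.

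Rps27a, which is made as a fusion of ubiquitin with the small subunit protein, was at 104 and 94.7 CPM in WT and at 112 and 121 CPM in Tas1r3-/- mice (0.23 ± 0.13). It was higher in both Tas1r3-/- libraries, by 0.17 without WT WD replicate 2 and by 0.31 without replicate 1, and did not pass the test (adjusted p = 0.757 in edgeR). Fau was at 271 and 235 CPM in WT and 246 and 210.0 CPM in Tas1r3-/- mice (-0.15 ± 0.16), and Rack1 at 235 and 187 CPM in WT and 224 and 209 CPM in Tas1r3-/- mice (0.04 ± 0.16).

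The paralogs are genes whose products can take the place of a core protein or resemble it. Rpl22l1, the paralog of Rpl22, had the highest fold change of all members, with 58.5 and 37.7 CPM in WT and 61.6 and 59.1 CPM in Tas1r3-/- mice (0.33 ± 0.23), but WT WD replicate 1 was close to the Tas1r3-/- libraries, and without WT WD replicate 2 the change was 0.05. Rpl22 itself was at 89.5 and 83.7 CPM in WT and 84.2 and 85.7 CPM in Tas1r3-/- mice (-0.03 ± 0.12). Rps4l was at 65.0 and 29.1 CPM in WT and 46.3 and 55.1 CPM in Tas1r3-/- mice (0.11 ± 0.39), the widest gap between WT libraries among the members.

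Rpl7l1 was at 53.1 and 47.7 CPM in WT and 53.1 and 46.7 CPM in Tas1r3-/- mice (-0.01 ± 0.14), and each group spanned the same range. Rpl36al was at 82.8 and 77.3 CPM in WT and 72.2 and 74.4 CPM in Tas1r3-/- mice (-0.13 ± 0.12), lower in both Tas1r3-/- libraries. So was Rpl36a, whose product is nearly the same, at 34.8 and 36.7 CPM in WT and 26.8 and 34.5 CPM in Tas1r3-/- mice (-0.22 ± 0.18). Its lower WT library and its higher Tas1r3-/- library were nearly equal, and without Tas1r3-/- WD replicate 1 its change was -0.05. Rps27l, a paralog of Rps27 known as a p53 target, was low, at 5.14 and 6.74 CPM in WT and 5.13 and 8.92 CPM in Tas1r3-/- mice (0.24 ± 0.39). The groups overlapped for Rps27l.

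Rps27rt could not be told apart from Rps27. The main transcript of Rps27 and the single transcript of Rps27rt had equal estimated counts in each of the 4 libraries, 536 and 420 in the WT libraries and 495 and 401 in the Tas1r3-/- libraries, so the values of both genes, 91.9 and 69.1 CPM in WT and 79.4 and 70.2 CPM in Tas1r3-/- mice for Rps27rt (-0.11 ± 0.18), are a single measurement. In the same way the 2 transcripts of Rpl37rt had 39.4% and 60.6% of its counts in every library. Rps4l and Rpl36al share most of their sequence with Rps4x and Rpl36a and are uncertain for the same reason. Rpl37rt was at 76.1 and 63.1 CPM in WT and 72.2 and 54.4 CPM in Tas1r3-/- mice (-0.14 ± 0.19), and Rpl32l, a copy of Rpl32, at 5.83 and 6.25 CPM in WT and 8.98 and 5.42 CPM in Tas1r3-/- mice (0.26 ± 0.35). Rps19bp1 was at 11.5 and 15.6 CPM in WT and 14.6 and 11.5 CPM in Tas1r3-/- mice (-0.05 ± 0.26). The groups overlapped for these 3 genes.

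Of the members 21 had more than 1 listed transcript, 61 transcripts in all. The share of the gene's counts was higher in both Tas1r3-/- libraries than in both WT libraries for 10 transcripts and lower for 11, against 16.5% and 16.3% of 21253 transcripts of all genes with several. These counts are a description without a test. The genes that follow were chosen after their values were seen. In Rpl22l1 the main transcript held 70.1% and 52.1% of the counts in WT and 79.8% and 80.3% in Tas1r3-/- mice. In Rpl38 the main transcript held 86.6% of the counts in WT WD replicate 2 against 55.1% to 60.2% in the other 3 libraries. Rps24, which is known for alternative splicing at its 3′ end, has 6 listed transcripts. Its leading transcript held 33.0% and 34.1% of the counts in WT and 29.5% and 35.1% in Tas1r3-/- mice, so the groups overlapped. The shares of the other transcripts did not overlap, with 3 higher and 2 lower in Tas1r3-/- mice. Of the higher ones, 2 kept nearly the same ratio to each other in every library, so they are not separate measurements. The first of these held 9.93% and 9.61% in WT and 10.2% and 10.6% in Tas1r3-/- mice. The remaining higher one held 18.3% and 17.7% in WT and 26.4% and 19.5% in Tas1r3-/- mice. One of the lower ones held 21.7% and 21.1% in WT and 17.2% and 17.8% in Tas1r3-/- mice.

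Other lists of protein synthesis and energy metabolism did not follow the order of the ribosomal protein genes in full. The 18 translation factors, whose mRNAs also carry the TOP motif, had a median log2 fold change of -0.05. In both Tas1r3-/- libraries 2 genes lay above (11.1%) and 4 below (22.2%), against 20.6% and 19.0% of all genes. The translation factors were highest in WT WD replicate 1 (0.06) as the ribosomal protein genes were. Eef1a1, the main elongation factor, was at 2212 and 1687 CPM in WT and 2078 and 2000 CPM in Tas1r3-/- mice (0.06 ± 0.18), again inside the WT range. Eef2 was at 1745 and 1662 CPM in WT and 1721 and 1629 CPM in Tas1r3-/- mice (-0.02 ± 0.13).

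The 34 ribosome biogenesis genes had a median of -0.02, with 6 above and 6 below (17.6% each), near the 20.6% and 19.0% of all genes. Rrp1 was at 339 and 333 CPM in WT and 291 and 315 CPM in Tas1r3-/- mice (-0.15 ± 0.13), and Ncl, nucleolin, at 224 and 213 CPM in WT and 227 and 195 CPM in Tas1r3-/- mice (-0.05 ± 0.14). The 15 genes of the mTORC1 pathway had a median of -0.08, with 3 above (20%) and 6 below (40%), against the same shares of all genes. Larp1, the TOP mRNA binding protein, was at 222 and 220 CPM in WT and 245 and 248 CPM in Tas1r3-/- mice (0.16 ± 0.12), and Mtor at 136 and 139.8 CPM in WT and 150.1 and 179.9 CPM in Tas1r3-/- mice (0.26 ± 0.15). Larp1 and Mtor were higher in both Tas1r3-/- libraries, and neither passed the test (adjusted p = 0.774 and 0.757 in edgeR). With the length offset 0 of the 15 genes lay above in both Tas1r3-/- libraries, Larp1 and Mtor included, and 7 below (46.7%). Among all genes 15.8% lay above and 21.5% below in that fit.

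**Figure D5:**
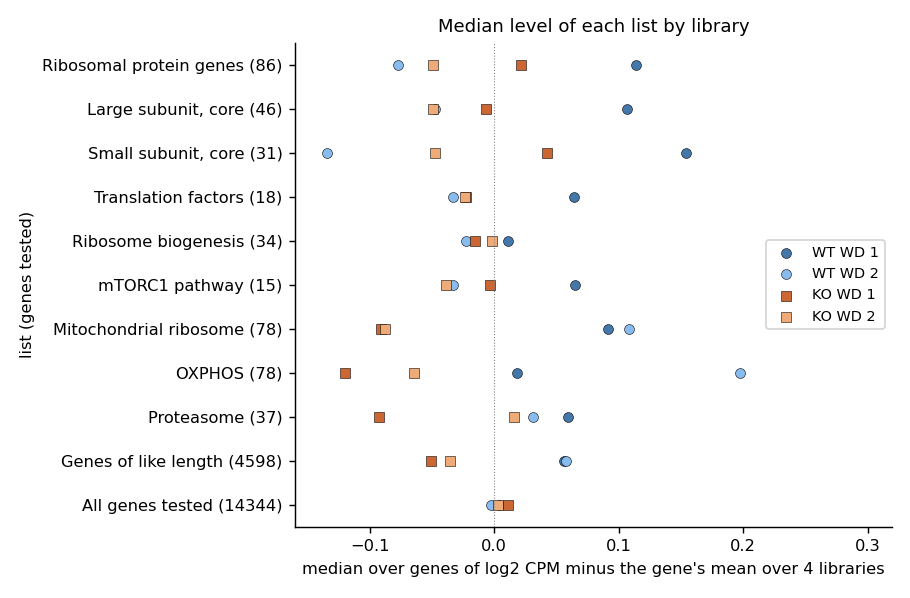
Median over the genes of each list of log2 CPM minus the gene's mean over the 4 libraries, with circles for WT WD and squares for Tas1r3-/- WD (KO) libraries and the number of genes tested in brackets. The ribosomal protein genes spread the WT libraries apart (0.11 and -0.08), the mitochondrial ribosome sets WT above Tas1r3-/- libraries (0.09 and 0.11 against -0.09 and -0.09), and OXPHOS is highest in WT WD replicate 2 (0.20).

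The mitochondrial ribosome, which translates the mRNAs of mitochondrial DNA, was at 0.09 and 0.11 in the WT libraries and at -0.09 and -0.09 in the Tas1r3-/- libraries, as medians relative to each gene's mean. Its 78 genes had a median of -0.18, with 5 above and 37 below in both Tas1r3-/- libraries (47.4%), against 19.0% below among all genes and 28.9% among genes of like length to the ribosomal protein genes. Mrpl10 was at 73.7 and 67.7 CPM in WT and 54.2 and 57.0 CPM in Tas1r3-/- mice (-0.35 ± 0.12, adjusted p = 0.757 in edgeR), and Mrpl38 at 66.3 and 55.2 CPM in WT and 62.8 and 60.4 CPM in Tas1r3-/- mice (0.02 ± 0.14). The median of the mitochondrial ribosome genes was -0.18 without WT WD replicate 2, -0.20 without replicate 1 and -0.14 with the length offset. In the offset fit 12 genes lay above (15.4%) and 24 below (30.8%). The shares there were 15.8% and 21.5% of all genes, and 21.9% and 11.0% of genes of like length to the ribosomal protein genes.

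The 78 tested genes of oxidative phosphorylation (OXPHOS), the respiratory chain and ATP synthase, had a median of -0.21, with 1 above and 43 below (55.1%), but were highest in WT WD replicate 2, and without that library the median was -0.12. With the length offset the median was also -0.12, and 9 genes lay above (11.5%) and 13 below (16.7%). The shares in that fit were 15.8% above and 21.5% below among all genes, and 21.9% and 11.0% among genes of like length. Atp5b was at 1090 and 1276 CPM in WT and 1014 and 1063 CPM in Tas1r3-/- mice (-0.19 ± 0.14), and Atp5a1 at 708 and 761 CPM in WT and 700.2 and 655 CPM in Tas1r3-/- mice (-0.12 ± 0.13). The 37 proteasome genes had a median of -0.10, with 2 above (5.41%) and 16 below (43.2%), where 19.0% of all genes and 28.9% of genes of like length lay below. With the length offset 9 proteasome genes lay above (24.3%) and 4 below (10.8%), near the shares of genes of like length in that fit. Psmd2 was at 179 and 201 CPM in WT and 176 and 209 CPM in Tas1r3-/- mice (0.02 ± 0.15), and Psmd3 at 189 and 204 CPM in WT and 156 and 181 CPM in Tas1r3-/- mice (-0.22 ± 0.14). None of these lists held a DEG in edgeR. The number of genes with an unadjusted p under 0.05 was 0 for translation factors and 1 each for ribosome biogenesis and mTORC1. It was 4 for the mitochondrial ribosome, 5 for OXPHOS and 2 for the proteasome, against 5.38% of all genes tested.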

How the data were processed

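Expected counts per RefSeq transcript were deposited by the authors, who used STAR on the mm39 build and Partek Flow for reads of an Ion Torrent kit and did not normalize the estimates. They were summed to genes by accession, with a RefSeq table of GRCm38.p6 used for names, and rounded, as the design had assumed counts of genes. Of 30930 transcripts 39 without a gene (0.347% to 2.49% of counts) were left out. Members and gene lists were chosen with earlier results of these data known. Groups were compared with edgeR 4.0.16 (quasi-likelihood test, TMM, filterByExpr, Benjamini-Hochberg) in R 4.3.3, tested on simulated data. Standard errors are those implied by the test. Log2 CPM used a prior count of 2. Transcript lengths are of Ensembl canonical transcripts in GENCODE M39, since lengths of the counted transcripts were not used here. Offsets take out a trend with length or GC, fitted in each library by loess at a span of 0.3. Alternatives were RLE size factors, library totals, DESeq2 1.42.0, limma-trend (limma 3.58.1), other count filters, a replicate block, the offsets, and each library left out. Named genes are the 10 members of highest CPM, the 5 highest and 5 lowest fold changes at a mean of at least 10 CPM, paralogs and stalk proteins, ribosomal proteins with other symbols, and the 2 most abundant genes of other lists. Others were named after their values were seen. A count of 0 allows up to 3 counts, 0.481 to 0.525 CPM. Values of some genes are not reported here. Figures were drawn with matplotlib 3.10.9.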

Additional observations from a re-analysis of the deposited data

How the results depend on the processing

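The number of DEGs among the members was 0 in every fit with 4 libraries, and 0 to 3 when a library was left out. Over all genes it was 8 with DESeq2, 0 in every other fit with 4 libraries and 0 to 2123 when a library was left out. The transcript length offset moved the median log2 fold change of the members to 0.0433 and gave 36 members above and 1 below in both Tas1r3-/- libraries, and with the replicate block added these were 0.0422, 36 and 1. The core proteins alone gave 1 above. Leaving out a library, the median log2 fold change of the members ranged from -0.138 to 0.0653 and its difference from genes of like length from -0.035 to 0.167. Members above ranged from 4 to 43, members below from 20 to 61, transcripts of higher share from 19 to 22 and of lower share from 18 to 21. A group of 1 library has no range of its own, which raises these counts by construction. The difference from genes of like length was -0.02 over lengths from the shortest to the longest member, 0.06 for genes of like length and level, and 0.04 for genes of like coding length, an alternative chosen after seeing the data. The labels do not say whether the replicate numbers pair the libraries. Deviations from the group mean had a correlation of 0.08 between libraries of the same number. With 2 libraries per group and a WT library of different tissue content, this cannot exclude a pairing. The replicate block alone gave a median of -0.05 and 0 DEGs. Of 405 values of 27 named members under these alternatives 374 lay within 1 standard error of the main value, 24 moved by more without a call, and 7 were called, all without WT WD replicate 1. Of the uncalled values 41 had the other sign. The main limits are 2 libraries per group, a WT library with a different tissue content, and reads shared between near-identical copies.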
